A study of Macaca radiata with 6 samples.

Results

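The genes described here carry the signal of a G protein-coupled receptor from the plasma membrane to calcium release and protein kinase C. They comprise the alpha, beta and gamma subunits of heterotrimeric G proteins, the RGS proteins that switch G alpha off, the phospholipase C enzymes, the protein kinase C isoforms and the inositol trisphosphate (IP3) receptors. The members were all probe sets whose single annotated symbol matched the symbol patterns of these families (GNA, GNB, GNG, RGS, PLC, PRKC and ITPR), which gave 96 probe sets of 51 genes among 52865 probe sets on the array. The rule itself uses no measured value.

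The tissue was the corpus luteum, the gland that forms from the ovulated follicle and secretes progesterone, of female bonnet monkeys (Macaca radiata). Animals received prostaglandin F2-alpha (PGF2alpha) as 3 intramuscular injections at 59 µg/kg of body weight, or phosphate-buffered saline as vehicle, on day 10 of the luteal phase, and the gland was taken 24 h later. Each group had 3 arrays of the Rhesus chip type, PGF2alpha replicates 1 to 3 and vehicle replicates 4 to 6. The labels give 3 monkeys per group without tying arrays to animals, so the p-values rest on the spread among these 6 samples, which may be partly technical. The comparison asks how transcripts of the pathway that PGF2alpha itself engages stood 24 h after treatment.

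PGF2alpha acts through a receptor coupled to G proteins of the Gq family. Active G alpha of this family turns on phospholipase C beta, which splits a membrane phosphoinositide into IP3 and diacylglycerol. IP3 opens its receptor on the endoplasmic reticulum and releases calcium, and diacylglycerol, with or without calcium, activates protein kinase C. In luteal cells this route is known for opposing the luteinising hormone and cyclic AMP signal that maintains progesterone synthesis. The PGF2alpha receptor PTGFR and 10 of 28 genes listed for Gq and other G protein routes, among them GNAQ, GNA11, GNAS, PLCB1, PRKCE and RGS5, are not analysed here.

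Values are linear signal intensities of probe sets, and fold changes are differences of group means of log2(signal + 40), which understates the change of dim probe sets. A probe set was tested if it reached the median of its array on at least 3 of the 6 arrays. This left 68 of 96 member probe sets and 40 of 51 genes. The array medians lay between 114.9 and 134.0. The arrays were grouped into 2 hybridisation runs by the date and hour of hybridisation in the scanner files, so the runs are inferred. Run 2 held PGF2alpha replicate 2 and vehicle replicate 4, a single array of each group, and run 1 held the other 4 arrays. Among transcripts of steroidogenic luteal cells, STAR, the mitochondrial cholesterol carrier, was bright in both groups but lower after PGF2alpha. It read 33830 to 50310 after PGF2alpha and 58820 to 71950 after vehicle. NR5A1, of the same marker list, was far dimmer, between 210 and 316.

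The IP3 receptor ITPR1 was lower after PGF2alpha, and the diacylglycerol-activated kinase PRKCD and the phospholipase PLCB2 were higher. These were the 3 of 40 tested member genes that passed an adjusted p of 0.05 (limma, with p-values adjusted by Benjamini-Hochberg across the 26944 probe sets of the fit), 2 higher and 1 lower. Over all 9980 tested genes the share that passed was 6.07%, and among these 40 genes it was 7.5%, which is near that background (3.76% of all tested genes were higher and 2.31% lower). By probe set 8 of 68 passed, against 5.01% of all tested probe sets. Of these 8, 4 were higher, against a background of 3.02%, and 4 were lower, against 1.99%, and all 4 that were lower belong to ITPR1. Among the 4 higher, 1 PRKCD probe set passed the brightness filter through the treated arrays alone, so the count of higher probe sets is given as a description. The median log2 fold change of the 40 genes was 0.16, against -0.02 over all tested genes, with 24 positive and 16 negative. The groups did not overlap in 11 of the 40 genes (27.5%), against 30.9% of all tested genes, with 9 higher (background 15.8%) and 2 lower (15.1%). By probe set they did not overlap in 24 of 68, against 26.8%. Without PGF2alpha replicate 2 no member passed, and without vehicle replicate 6 no gene and 1 probe set did. The share of all tested genes that passed in these reduced fits is not given here, so the loss cannot be read as particular to the members. The gene counts lay near the background of the whole array, so the account below turns on single members.

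**Figure D1:**
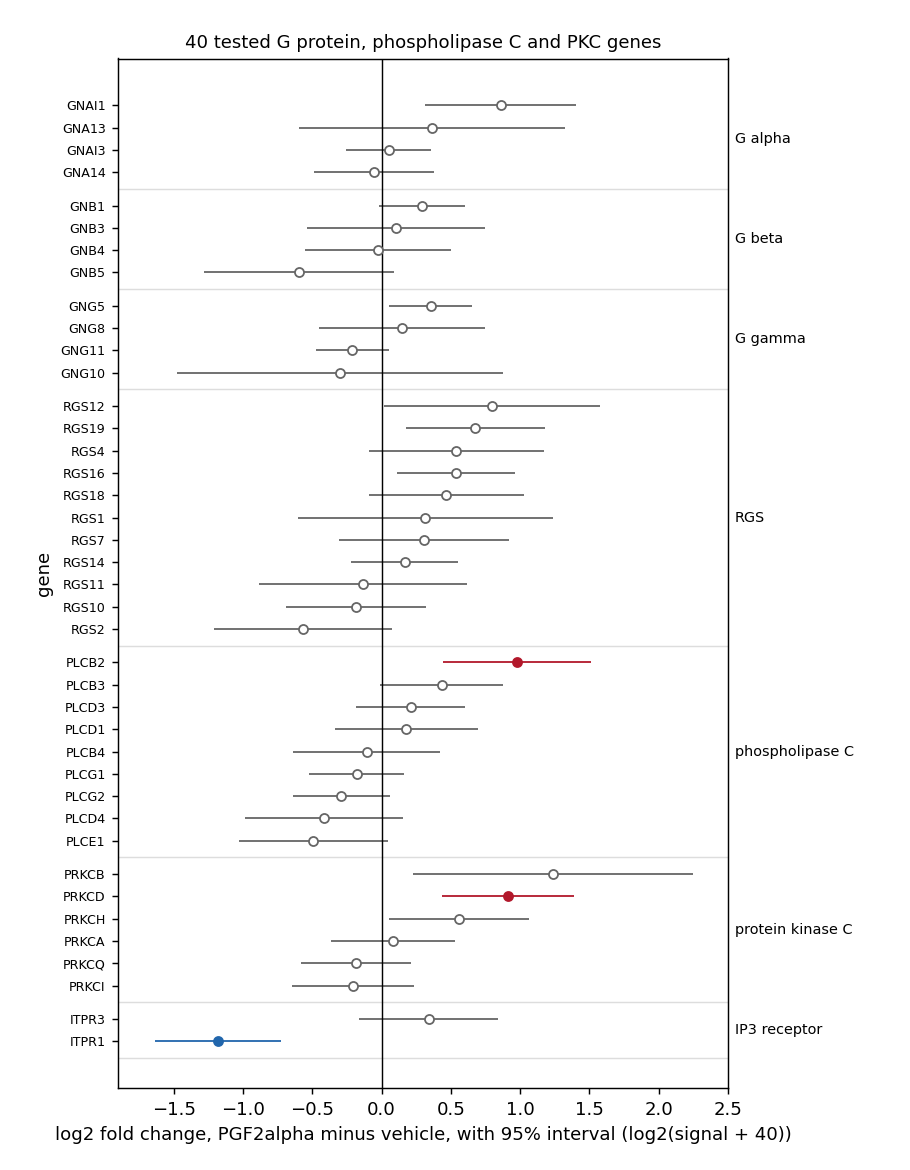
Log2 fold change (PGF2alpha minus vehicle, on the log2(signal + 40) scale) of the 40 tested genes, each read from its tested probe set of highest mean, with the 95% interval of the limma fit, grouped by role. Filled symbols mark an adjusted p under 0.05: ITPR1 lies below 0, and PRKCD and PLCB2 lie above it.

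ITPR1 encodes the type 1 IP3 receptor, the calcium channel of the endoplasmic reticulum that IP3 opens. Its brightest probe set read 1737, 1315 and 1706 in PGF2alpha replicates 1, 2 and 3 and 2746, 4374 and 3936 in vehicle replicates 4, 5 and 6. Every treated array therefore lay below every vehicle array, and the mean was 1586 ± 235 after PGF2alpha and 3685 ± 842 after vehicle (SD, n = 3). The log2 fold change was -1.18 (SE 0.201, limma adjusted p = 0.0158). All 3 other tested ITPR1 probe sets also fell, by 1.05, 1.47 and 1.19 on the log2 scale (limma adjusted p = 0.0307, 0.0266 and 0.0266), and in each of them the groups did not overlap. The last 2 of these values come from probe sets with a shared design number and are not independent. The difference was -1.25 within run 1 and -1.04 within run 2. The fifth probe set read between 19.8 and 89.0 and was not tested.

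The call for the brightest ITPR1 probe set was lost without PGF2alpha replicate 2 (-1.05, limma adjusted p = 0.0714) and without vehicle replicate 6 (-1.12, limma adjusted p = 0.0648), with the direction kept. Markers of steroidogenic cells moved the same way, with 8 of 8 tested genes at a negative log2 fold change. Of these 8 markers 2 were called, where 2.31% of all tested genes were called lower. They were STAR at -0.67 (limma adjusted p = 0.0497) and CYP17A1 at -1.46 (limma adjusted p = 0.02985). The marker list was chosen with earlier results of these data known. The summed signal below is that of all 8 markers. Their summed signal was 79920, 88404 and 145094 in PGF2alpha replicates 1, 2 and 3, against 162996 to 194795 after vehicle. In the brightest ITPR1 probe set replicate 1 was the highest treated array, and in each other tested ITPR1 probe set replicate 3 was. The part of steroidogenic cells in the ITPR1 result was not tested. In bulk tissue fewer cells of a type and less RNA per cell cannot be told apart. The summed signals of endothelial markers (25274 to 36158 against 26222 to 29604) and of pericyte and smooth muscle markers (14180 to 21094 against 16867 to 18977) overlapped between the groups. By gene, 1 of 10 endothelial markers was called higher and 0 lower, where 3.76% of all tested genes were called higher. The called marker was CLDN5, at 0.90 (limma adjusted p = 0.0266). In 3 of these 10 genes all treated arrays lay above all vehicle arrays, and the median log2 fold change of the 10 was 0.1. Of the 7 smooth muscle and pericyte genes 0 were called.

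Neither of the other IP3 receptors was called. ITPR3, a receptor of the same channel family, read 178, 210 and 203 in PGF2alpha replicates 1, 2 and 3 and 131, 137 and 176 in vehicle replicates 4, 5 and 6. The treated arrays lay above the vehicle arrays, by a small margin, and the log2 fold change of 0.34 did not pass (limma adjusted p = 0.428). Its 95% interval ran from -0.16 to 0.84, and that of ITPR1 from -1.63 to -0.73. ITPR2 lay between 17.1 and 157 on the 6 arrays and was not tested.

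**Figure D2:**
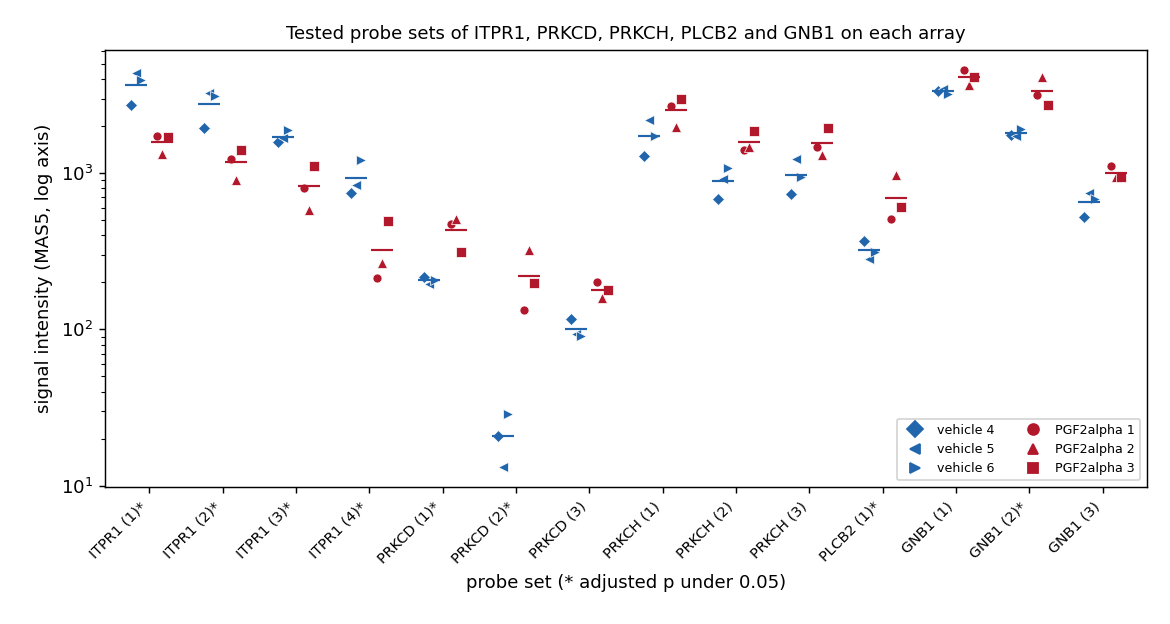
Signal intensity on a log axis of each tested probe set of ITPR1, PRKCD, PRKCH, PLCB2 and GNB1, with 1 symbol per array and bars at the arithmetic group means. All 4 ITPR1 probe sets have the treated arrays below the vehicle arrays, and all 3 of PRKCD and all 3 of GNB1 have them above.

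Among protein kinase C genes 1 of 6 rose and 0 fell, where 3.76% of all tested genes rose and 2.31% fell. PRKCD encodes protein kinase C delta, which responds to diacylglycerol without calcium. Its brightest probe set read 475, 506 and 313 in PGF2alpha replicates 1, 2 and 3 and 216, 195 and 208 in vehicle replicates 4, 5 and 6. The vehicle arrays lay close together and all treated arrays lay above them. The mean was 431 ± 104 against 206 ± 10.4 (SD, n = 3), and the log2 fold change was 0.91 (SE 0.211, limma adjusted p = 0.0421).

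Both other PRKCD probe sets pointed the same way from dimmer signals. The dimmer of them read 134, 324 and 197 after PGF2alpha and 20.7, 13.2 and 28.7 after vehicle, with a log2 fold change of 2.03 (limma adjusted p = 0.0196). The remaining probe set stood at 0.64 (limma adjusted p = 0.171). Both of these passed the brightness filter through the treated arrays alone, so the filter favoured a higher value, and the size of the former fold is uncertain. With 1 array left out, the brightest probe set kept its call only without PGF2alpha replicate 3 (limma adjusted p = 0.0152), and the other 5 fits gave limma adjusted p between 0.0969 and 0.163. The call was also lost without the brightness filter (limma adjusted p = 0.0904) and with eBayes without a variance trend (limma adjusted p = 0.0586).

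PRKCB and PRKCH, a calcium-dependent isoform abundant in leukocytes and an isoform of the delta type, had positive values that did not pass. PRKCB read 164, 287 and 180 in PGF2alpha replicates 1, 2 and 3 and 100.5, 10.4 and 119 in vehicle replicates 4, 5 and 6, a log2 fold change of 1.24 (limma adjusted p = 0.153). The groups did not overlap, but this probe set also passed the filter through the treated arrays alone. PRKCH had 3 tested probe sets at 0.56, 0.81 and 0.68 (limma adjusted p = 0.196, 0.0507 and 0.118). In the last 2 of these all treated arrays lay above all vehicle arrays, and in the brightest, with the smallest value, they overlapped. PRKCA, the calcium-dependent alpha isoform, stood at 0.08 with a 95% interval of -0.37 to 0.53. PRKCQ, the isoform of T cells, stood at -0.19 and the atypical PRKCI, which needs neither calcium nor diacylglycerol, at -0.21.

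Of 9 tested phospholipase C genes, 1 rose and 0 fell, against 3.76% and 2.31% of all tested genes. PLCB2, the phospholipase C beta of blood cells, read 510, 965 and 602 in PGF2alpha replicates 1, 2 and 3 and 368, 282 and 313 in vehicle replicates 4, 5 and 6. All treated arrays lay above all vehicle arrays, with PGF2alpha replicate 2 the highest. The mean was 692 ± 241 against 321 ± 43.7 (SD, n = 3), and the log2 fold change was 0.98 (SE 0.236, limma adjusted p = 0.0488). PLCB2 has a single probe set, and its call was lost without each of the 6 arrays in turn, with limma adjusted p between 0.0595 and 0.143. It was also lost under quantile normalization, scaling to a common median, a pseudocount of 160, no filter and eBayes without trend, with limma adjusted p between 0.0513 and 0.0861, and was kept under 7 of 18 alternatives.

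The other tested phospholipase C beta genes, PLCB3 and PLCB4, gave smaller values. PLCB3 had a log2 fold change of 0.43 (95% interval -0.01 to 0.87, limma adjusted p = 0.246), and its second probe set, which shares its design number, stood at 0.44. PLCB4 read 1366, 828 and 1068 after PGF2alpha and 848, 1303 and 1376 after vehicle. Its groups overlapped fully, at -0.11 with a 95% interval of -0.64 to 0.42.

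Phospholipases that are not driven by Gq did not pass. PLCG1 and PLCG2, which receptor and immune tyrosine kinases activate, stood at -0.18 and -0.29, each with a dimmer probe set of the opposite sign (0.03 and 0.14). The calcium-regulated delta enzymes PLCD1, PLCD3 and PLCD4 stood at 0.18, 0.21 and -0.41. PLCE1 stood at -0.49 (limma adjusted p = 0.281). PLCH1, with 5 probe sets between 5.75 and 126.5, and PLCH2, between 22.7 and 168.5, stayed below the filter.

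Leukocyte transcripts rose in the same arrays as PRKCD and PLCB2. For the counts below, 3.76% of all tested genes rose and 2.31% fell. The marker lists were chosen with earlier results of these data known, so the counts are given as a description. Of 6 general leukocyte markers 5 rose and 0 fell, and their summed signal was 10866 to 21826 after PGF2alpha against 3090 to 5223 after vehicle. Of 16 macrophage and monocyte markers 7 rose and 0 fell, with sums of 54496 to 88211 against 22341 to 38000, and of 5 tested neutrophil markers 4 rose, with sums of 12507 to 31175 against 3521 to 6790. Levels in the vehicle group differed between markers: PTPRC, the common leukocyte antigen, read 795, 294 and 862 there, the macrophage receptor MARCO 21.1, 45.3 and 115, and the neutrophil protein S100A9 127, 30.1 and 62.3. MARCO passed the brightness filter through the treated arrays alone. Of 4 tested T and NK cell markers 1 rose and 0 fell, with sums of 27801 to 44208 against 14301 to 17670. The one that rose was GNLY, a granule protein of cytotoxic lymphocytes, at 3.00 (limma adjusted p = 0.00186). That probe set is of a kind that can cross-hybridise, and the other tested GNLY probe set stood at 0.47 (limma adjusted p = 0.232). GZMA, a granule protease of the same cells, stood at -0.85 (limma adjusted p = 0.0584). Of 5 fibroblast markers 1 rose, the matrix proteoglycan DCN at 0.64 (limma adjusted p = 0.0421), with sums of 70500 to 87386 against 53035 to 73509. PGF2alpha replicate 2 had the highest sum in the general leukocyte, macrophage and neutrophil lists and the highest PRKCD and PLCB2 signal. It also had the highest T and NK cell sum, but there through GNLY, which read 21590, 30860 and 15560 in PGF2alpha replicates 1, 2 and 3. In the summed probe sets of GZMA, GZMB and KLRD1, the other tested genes of that list, replicate 1 was the highest treated array. The part of these cells in the rise of PRKCD and PLCB2 was not tested.

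**Figure D3:**
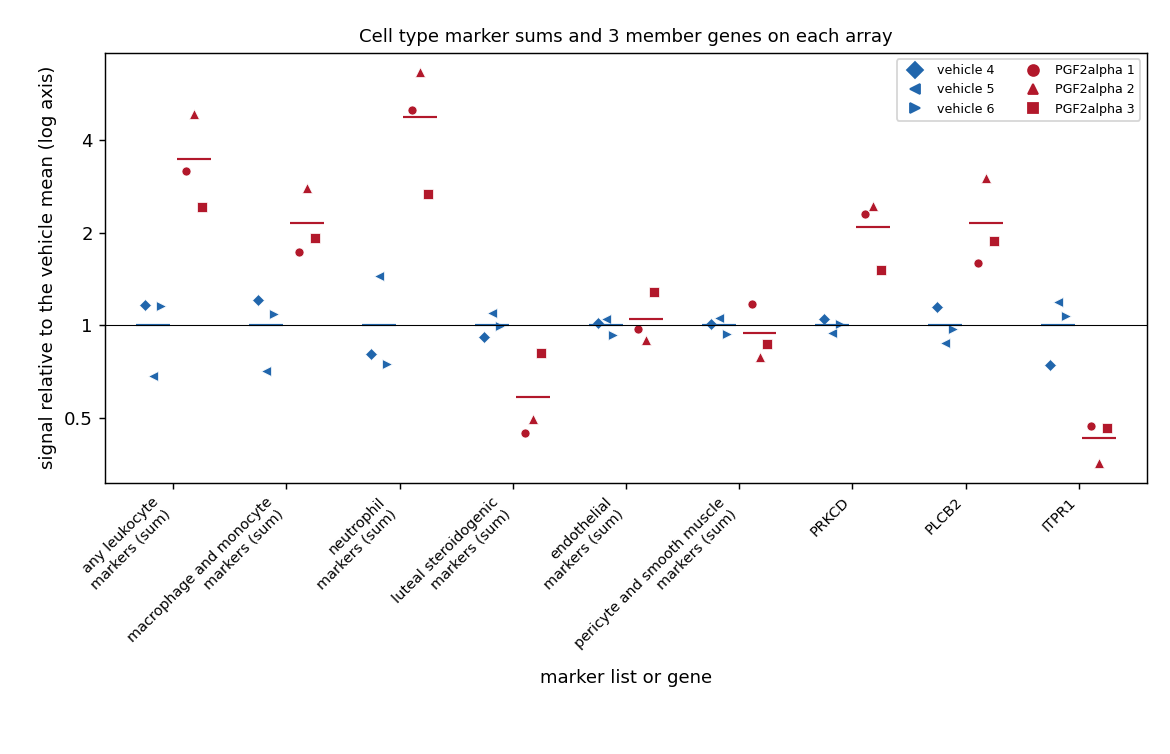
Summed signal of the tested genes of 6 marker lists, and the signal of PRKCD, PLCB2 and ITPR1, on each array relative to the vehicle mean, on a log axis, with bars at the arithmetic group means. Leukocyte, macrophage and neutrophil sums, PRKCD and PLCB2 lie above the vehicle arrays on all 3 treated arrays, and the luteal steroidogenic sum and ITPR1 lie below them.

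Of the G protein subunits none of the 12 tested genes passed, 4 each of alpha, beta and gamma. At an unadjusted p under 0.05 there were 2, GNAI1 and GNG5, where 24.3% of all tested genes had such a p. GNAI1 encodes an alpha subunit that inhibits adenylyl cyclase. It read 2447, 3938 and 2111 in PGF2alpha replicates 1, 2 and 3 and 1419, 1262 and 1837 in vehicle replicates 4, 5 and 6. The treated arrays lay above the vehicle arrays without overlap, here and in its second probe set, with log2 fold changes of 0.86 and 0.40 (limma adjusted p = 0.0773 and 0.237). Without PGF2alpha replicate 3 the former stood at 1.04 and passed (limma adjusted p = 0.0423). The difference within run 2 was 1.45 and within run 1 it was 0.57.

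None of the remaining alpha subunits passed. The brightest of 4 GNAI3 probe sets, of the same inhibitory family, read 5337, 4881 and 4492 after PGF2alpha and 4749, 5132 and 4308 after vehicle, with a log2 fold change of 0.05 and a 95% interval of -0.25 to 0.36. The other GNAI3 probe sets stood at 0.27, -0.25 and 0.31, and in the last of these all treated arrays lay above all vehicle arrays (limma adjusted p = 0.245). GNA14, the only Gq family alpha subunit among the members, stood at -0.06 with a 95% interval of -0.49 to 0.38. GNA13 stood at 0.36 with a wide 95% interval of -0.60 to 1.32. GNAO1, the alpha subunit abundant in neurons, lay between 50.5 and 103.5 and was not tested.

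GNB1, a widely used beta subunit, had all treated arrays above all vehicle arrays in each of its 3 probe sets, but the brightest did not pass. That probe set read 4581, 3659 and 4122 in PGF2alpha replicates 1, 2 and 3 and 3375, 3458 and 3209 in vehicle replicates 4, 5 and 6, a log2 fold change of 0.29 (limma adjusted p = 0.263). The second rose by 0.86 on the log2 scale (3332 ± 715 against 1795 ± 113, SD, n = 3, limma adjusted p = 0.0275), and the dimmest stood at 0.59 (limma adjusted p = 0.0915). With the log2 values of the 3 probe sets averaged the gene passed at 0.58 (limma adjusted p = 0.0411). GNB5, the beta subunit that pairs with the RGS proteins of the RGS7 group, stood at -0.60 and -0.52 in its 2 probe sets (limma adjusted p = 0.303 and 0.280), with -0.07 within run 1 and -1.65 within run 2 in the former. GNB3 and GNB4 stood at 0.10 and -0.03.

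Among gamma subunits, which anchor the beta subunit to the membrane, GNG5 and GNG11 separated the groups by small steps in opposite directions. GNG5 read 4890, 4409 and 4199 after PGF2alpha and 3238, 3578 and 3703 after vehicle, at 0.36 (limma adjusted p = 0.166). GNG11 read 7519, 7260 and 7851 after PGF2alpha and 9039, 8290 and 8869 after vehicle, at -0.21 (limma adjusted p = 0.350), with -0.23 in a probe set that shares its design number. GNG10 varied more within groups than between them. It read 1700, 5850 and 6001 after PGF2alpha and 7055, 2438 and 6537 after vehicle, with PGF2alpha replicate 1 and vehicle replicate 5 far below the others, and its 95% interval ran from -1.48 to 0.87. GNG8 stood at 0.15, and GNG4 and GNG7 were not tested.

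RGS proteins speed the hydrolysis of GTP by G alpha and so end the signal. Of 11 tested RGS genes none passed, and 3 had an unadjusted p under 0.05 (RGS12, RGS16 and RGS19), against 24.3% of all tested genes, with 8 positive and 3 negative log2 fold changes and a median of 0.32. RGS2, which acts by preference on Gq, read 6415, 10140 and 5556 in PGF2alpha replicates 1, 2 and 3 and 15930, 9067 and 8132 in vehicle replicates 4, 5 and 6. PGF2alpha replicate 2 lay above vehicle replicates 5 and 6, so the groups overlapped. The log2 fold change was -0.56 with a 95% interval of -1.21 to 0.08 (limma adjusted p = 0.300), and the second probe set stood at -0.28. The sign was negative within both runs.

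RGS16 and RGS19 had all treated arrays above all vehicle arrays. RGS16, an inducible regulator of Gi and Gq, read 340, 410 and 353 after PGF2alpha and 282, 245 and 201 after vehicle, at 0.54 (limma adjusted p = 0.145). RGS19, a regulator of the Gi class, read 753, 1343 and 858 after PGF2alpha and 656, 507 and 594 after vehicle, at 0.68 (limma adjusted p = 0.120). RGS4, another regulator of Gi and Gq, was positive in all 3 probe sets (0.54, 0.77 and 0.87, limma adjusted p from 0.18 to 0.313), with overlap between the groups in each. RGS12 stood at 0.79 in its brightest probe set (limma adjusted p = 0.229), and at 0.54 and -0.35 in the others.

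RGS genes of blood cells did not pass either. RGS18, found in platelets and other blood cells, stood at 0.47 (limma adjusted p = 0.323), and RGS1, an inducible regulator of lymphocytes, stood at 0.32 with a 95% interval of -0.61 to 1.24. RGS10 and RGS14 stood at -0.18 and 0.17, and RGS7 and RGS11, partners of GNB5, at 0.31 and -0.14. RGS6, RGS9, RGS13, RGS20 and RGS22 stayed between 1.65 and 164 and were not tested.

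Several tested probe sets were present for 18 member genes, and all pointed one way in 11 of them. In 7 genes (GNAI3, PLCG1, PLCG2, PRKCA, PRKCQ, RGS10 and RGS12) the signs were mixed, and no probe set of these 7 was called. ITPR1, with 4 of 4 called, was the member with the most called probe sets, and GNB1 had 1 of 3. PRKCD had 2 of 3, but 1 of these and the uncalled one passed the brightness filter through the treated arrays alone. Of the 8 called probe sets, PGF2alpha replicate 3 was the treated array nearest to the vehicle mean in 5, most of them of ITPR1. The same share over all tested probe sets is not given here. Of the 28 member probe sets below the filter, which read between 1.65 and 198, 0 passed when the fit was run without it (smallest limma adjusted p = 0.249).

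**Figure D4:**
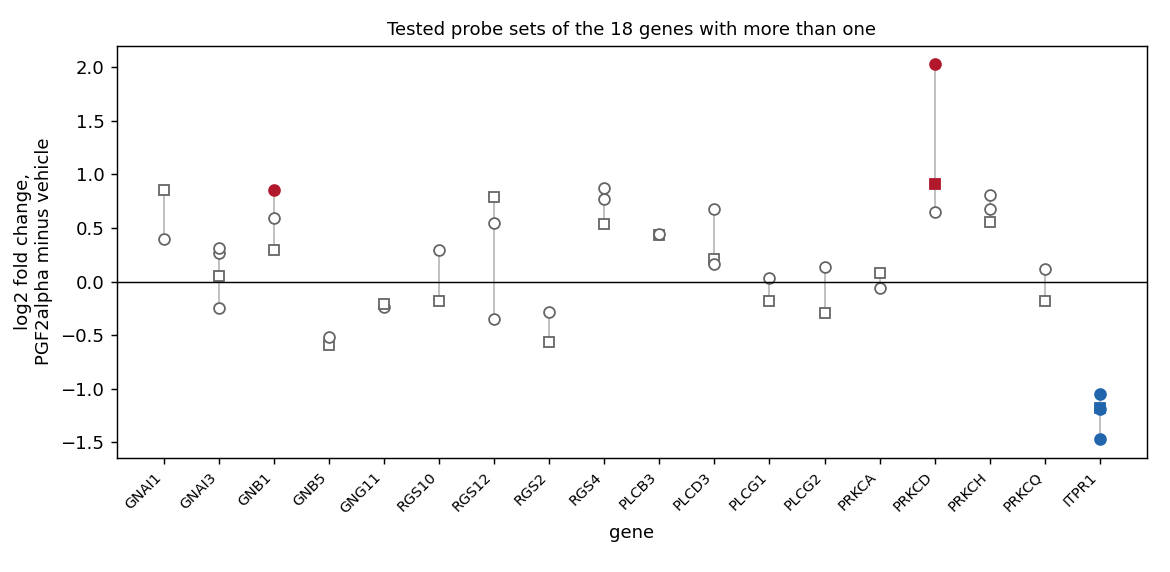
Log2 fold change (PGF2alpha minus vehicle) of each tested probe set of the 18 member genes with more than 1, with a square for the probe set of highest mean and filled symbols for an adjusted p under 0.05. The 4 ITPR1 probe sets lie between -1.47 and -1.05, and 7 genes have probe sets on both sides of 0.

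The genes that act around and after these proteins were read from a list written for phosphoinositide supply, receptor desensitisation, calcium entry and removal, calmodulin targets and protein kinase C effectors. The array names 78 of them, and 64 passed the filter. Of these 2 rose and 4 fell, with a median log2 fold change of 0.05. The share called, 9.38%, stood against 6.07% of all tested genes. This list was chosen with earlier results of these data known, so its share is given as a description. The 2 that rose were RCAN1 and CDS2, and the 4 that fell were ATP2B4, NFATC4, PIP5K1B and UNC13D.

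RCAN1, an inhibitor of the calcium-activated phosphatase calcineurin and a known target of the calcineurin and NFAT route, had the largest difference in the list. It read 10970, 4857 and 2400 in PGF2alpha replicates 1, 2 and 3 and 405, 456 and 676 in vehicle replicates 4, 5 and 6. The lowest treated array thus lay well above the highest vehicle array, though the treated arrays differed widely among themselves. The mean was 6077 ± 4415 against 512 ± 144 (SD, n = 3), and the log2 fold change was 3.23 (SE 0.456, limma adjusted p = 0.0091). A second probe set rose by 2.92 (limma adjusted p = 0.00963), while a dim one stood at -1.40 (limma adjusted p = 0.0984). This dim probe set passed the brightness filter through the vehicle arrays alone, so the filter favoured a lower value there. The call of the brightest probe set was lost without PGF2alpha replicate 2 (3.26, limma adjusted p = 0.0512). Averaging the 3 probe sets, the dim one included, lowered the log2 fold change to 1.58.

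NFATC4, a calcineurin-dependent transcription factor, read 864, 1080 and 1610 after PGF2alpha and 4182, 3014 and 3247 after vehicle. All treated arrays lay below all vehicle arrays, and the log2 fold change was -1.56 (SE 0.231, limma adjusted p = 0.0097). Its second probe set did not move with it (0.09, limma adjusted p = 0.869), and the call was lost without PGF2alpha replicate 2 (limma adjusted p = 0.0592) and with both probe sets averaged (-0.73, limma adjusted p = 0.0533). NFATC1, NFATC2 and NFATC3 stood at -0.14, 0.28 and 0.18, and the calcineurin catalytic subunits PPP3CB and PPP3CC at -0.07 and -0.15, all chosen after their values were seen.

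PIP5K1B, a kinase that makes the phosphoinositide substrate of phospholipase C, read 342, 329 and 289 in PGF2alpha replicates 1, 2 and 3 and 1050, 866 and 706 in vehicle replicates 4, 5 and 6. It was 320 ± 28.1 against 874 ± 172 (SD, n = 3), and the log2 fold change was -1.33 (SE 0.183, limma adjusted p = 0.0086). It was called under all 18 alternatives tried, each left-out array included. CDS2, which makes the lipid precursor of phosphatidylinositol, rose from 546 ± 110 to 1222 ± 373 (SD, n = 3), by 1.08 (limma adjusted p = 0.0339), with its second probe set at 0.56 (limma adjusted p = 0.219). Leaving out PGF2alpha replicate 3 kept the call (limma adjusted p = 0.0166), and leaving out any other single array lost it, with limma adjusted p between 0.0506 and 0.1225. It was kept under 10 of 18 alternatives.

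ATP2B4, a calcium pump of the plasma membrane, read 146, 120 and 486 in PGF2alpha replicates 1, 2 and 3 and 886, 746 and 1050 in vehicle replicates 4, 5 and 6. It fell by 1.89 on the log2 scale (SE 0.397, limma adjusted p = 0.031), with PGF2alpha replicate 3 nearest to vehicle, and the call was lost without each array other than that replicate (limma adjusted p from 0.068 to 0.114), without the filter (limma adjusted p = 0.0549) and without the variance trend (limma adjusted p = 0.0607). ATP2B1, another calcium pump of the plasma membrane, stood at 0.41 in its brightest probe set (limma adjusted p = 0.244) and at 0.59 and 0.47 in the others, of which the former passed (limma adjusted p = 0.0419). UNC13D, a calcium sensitive protein of granule release, fell by 0.84 (limma adjusted p = 0.0451). Its call was lost without each array other than vehicle replicate 4 (limma adjusted p from 0.082 to 0.154) and kept under 8 of 18 alternatives. Its 2 other probe sets stood at -0.67 and -0.55. The former of these passed the brightness filter through the vehicle arrays alone, so the filter favoured a lower value there.

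**Figure D5:**
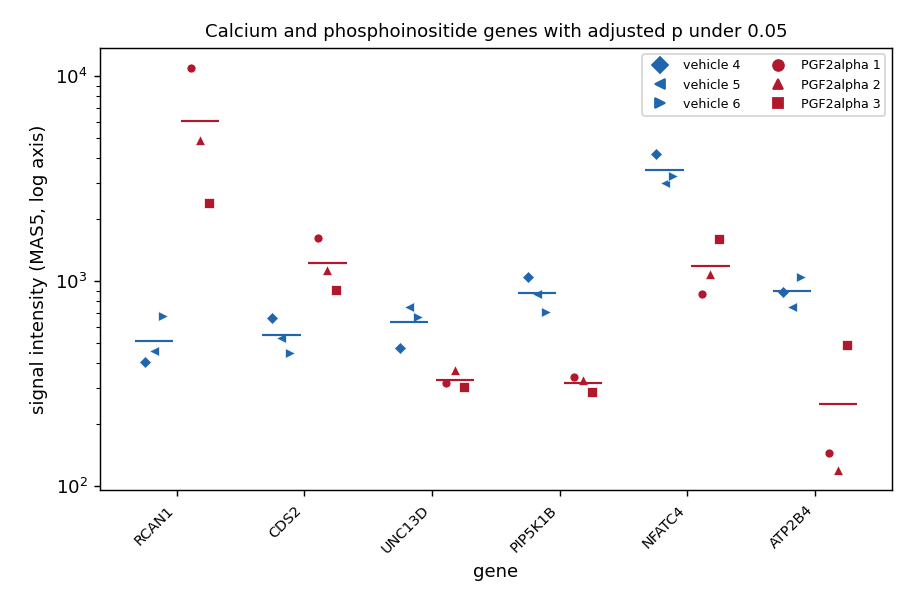
Signal intensity on a log axis of the 6 genes of the downstream list that passed, with 1 symbol per array and bars at the arithmetic group means. In each of the 6 the treated and vehicle arrays do not overlap, with RCAN1 and CDS2 higher and UNC13D, PIP5K1B, NFATC4 and ATP2B4 lower after PGF2alpha.

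Apart from these 6, no gene of the downstream list passed in its brightest probe set. A dimmer probe set passed in ATP2B1, in the arrestin ARRB1 (0.74, limma adjusted p = 0.0486) and in CHN2, a diacylglycerol-binding protein (1.91, limma adjusted p = 0.0229). The brightest of ARRB1 and CHN2 stood at 0.62 and 0.92 (limma adjusted p = 0.0986 and 0.0647), and the called CHN2 probe set passed the brightness filter through the treated arrays alone. These 3 genes were chosen after their values were seen. The store sensor STIM2 and the kinase CAMK2G were close to the threshold from below, at -0.70 (limma adjusted p = 0.0506) and -0.68 (limma adjusted p = 0.0549), and were chosen after their values were seen. By gene, the receptor kinases and arrestins had 0 calls among 6 and a median of 0.26, and the diacylglycerol kinases 0 among 3. Calcium entry channels and pumps had 1 call among 11, and calmodulin targets 2 among 14. Genes listed as effectors or substrates of diacylglycerol and protein kinase C had 1 among 14 (UNC13D). Inositol lipid and phosphate metabolism had 2 among 16. Over all tested genes 6.07% were called.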

How the data were processed

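Total RNA of the corpus luteum was labelled with biotin and hybridised to Rhesus arrays. The authors deposited a linear signal intensity per probe set, made with MAS5, per the submitters' processing notes. Every array had a mean of 500.0 once 2% of its values were dropped from either end, so no further normalization was applied. Symbols came from a platform annotation that can be old (24969 probe sets with 1 symbol, 361 with several, 27535 with none), and the probes match another macaque species. No detection calls were used. Groups were compared with limma 3.58.1 in R 4.3.3 (lmFit, eBayes with a variance trend, two-sided, Benjamini-Hochberg over every probe set in the fit), which was tested on simulated data. A gene was read from its tested probe set of highest mean log2 value. The pseudocount of 40 is the 25th percentile of all values.

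Named genes were the members that passed, the 3 of smallest p and the brightest of each role, and downstream genes that passed. Genes listed for Gq and other G protein routes were also named, as were members with another probe set called. Other genes are named only to account for members, lists and markers, and those were chosen after their values were seen. The members and lists were chosen with earlier results of these data known. Ratios of 3-prime to 5-prime control signals lay between 1.49 and 2.25 (ACTB) and 1.39 and 1.73 (GAPDH), with an exact permutation p of 1.0 for each, where 0.1 is the smallest possible. The number of arrays limits the precision. No sequences are given.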

Additional observations from a re-analysis of the deposited data

How the results depend on the processing

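Other settings were a pseudocount of 10 or 160, a brightness filter at percentile 70 or none, quantile or median scaling of the arrays, robust or trend-free eBayes, array weights, the hybridisation run as a block, leaving out probe sets of the kinds that can cross-hybridise, averaging the probe sets of a gene, and leaving out each array. Leaving out 1 array gave 0 to 7 called member probe sets (8 in the report), 0 to 3 called member genes (3) and 1 to 8 called downstream genes (6). Without PGF2alpha replicate 2 these counts were 0, 0 and 1, and without vehicle replicate 6 they were 1, 0 and 3. The share of all tested genes called under each alternative is not given here, so these counts do not set the members apart from the array. Without the variance trend the counts were 2, 1 and 3, and without the filter 1 member gene and 3 downstream genes were called. Array weights gave 10 downstream genes. Under the other alternatives each count stayed within 1.5 times its reported value. The median of the member genes ran from 0.07 to 0.20. Of 578 values of 33 named genes under the alternatives, 517 kept direction and side of the threshold, 48 lost a call, 2 gained one and 11 changed sign. The sign changed only in 7 genes that were not called, each time without 1 array: GNA13 (-0.15 to 0.67 without 1 array), GNAI3 (-0.01 to 0.11), GNB3 (-0.03 to 0.33), GNG10 (-0.79 to 0.29), PLCB4 (-0.32 to 0.07), PRKCA (-0.08 to 0.23) and RGS1 (-0.02 to 0.62). The causes were not tested. PRKCD had no value with the filter at percentile 70. No paired analysis was possible because the replicate numbers differ between the groups.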
